A study of Mus musculus with 9 samples.

Results

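Polycomb repressive complex 2 (PRC2) was followed through the mRNA of 10 of its core and accessory subunits in mouse embryonic stem cells (ESCs) with mutated *Rbbp4*. The members were chosen by symbol, as the genes *Ezh1*, *Ezh2*, *Eed*, *Suz12*, *Rbbp7*, *Aebp2*, *Jarid2*, *Phf1*, *Mtf2* and *Phf19*, which are 10 of the 25239 gene symbols counted. RNA was sequenced from 9 libraries of E14 cells, a mouse ESC line of the strain given as 12910la, grown with fetal bovine serum and leukemia inhibitory factor. The 3 control libraries came from the parental line with the genotype *Rbbp4*+/+. The 3 Ins/Ins libraries came from a line with a short in-frame insertion in both *Rbbp4* alleles, and the 3 Ins/Del libraries from a line with that insertion in one allele and a short in-frame deletion in the other. Each mutant line was a single CRISPR-Cas9 clone, so that a property of the clone and an effect of the *Rbbp4* alleles cannot be told apart. Nothing in the labels says that the libraries of a line came from separate cultures, and p-values then measure the spread between these libraries, which may be technical.

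PRC2 methylates lysine 27 of histone H3, a mark of genes kept silent during development. EZH1 or EZH2 carries the methyltransferase activity, EED and SUZ12 hold the enzyme in its active form, and RBBP4 or its close relative RBBP7 binds histones as the remaining core subunit. Accessory subunits define alternative forms of the complex. JARID2 and AEBP2 join the form called PRC2.2, whereas the Polycomb-like proteins PHF1, MTF2 and PHF19 join the form called PRC2.1 and help to bring it to CpG-rich DNA. In ESCs, PRC2 occupies the CpG-rich promoters of many developmental regulators.

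The question put to these libraries was whether mutation of RBBP4, itself a PRC2 subunit, went along with other mRNA levels of the rest of the complex. In Ins/Ins, 6 of the 10 members rose, 0 fell and 4 were not called. In Ins/Del, 6 rose, 1 fell and 3 were not called. The 6 that rose were *Eed*, *Suz12*, *Aebp2*, *Jarid2*, *Phf1* and *Phf19* in either line, and *Rbbp7* fell in Ins/Del. Of the 14125 genes tested, 29.0% were called higher and 29.4% lower in Ins/Ins, and 30.6% higher and 31.9% lower in Ins/Del. The median log2 fold change of the members was 0.34 in Ins/Ins and 0.38 in Ins/Del, against 0.0038 and -0.011 over all genes tested. Without regard to sign, the median was 0.34 in Ins/Ins, against 0.30 over all genes, and 0.43 in Ins/Del, against 0.34. A gene counted as called where the quasi-likelihood test of edgeR gave a p of at most 0.01 after Benjamini-Hochberg adjustment over all genes tested. Both comparisons used the same 3 control libraries.

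The promoters of 3 members held letters bound by E2F proteins, which are transcription factors of the cell cycle, and they are shown with the promoters' position and strand. Each stretch runs 5′ to 3′ in the direction of transcription, from 250 bases before the RefSeq start site to the 20 bases from that site on, on the build GRCm38.p6, with the E2F letters in capitals. *Ezh2* lies at chr6:47595011-47595280 on the minus strand, *Suz12* at chr11:79992856-79993125 on the plus strand, and *Phf19* at chr2:34913957-34914226 on the minus strand.
Ezh2: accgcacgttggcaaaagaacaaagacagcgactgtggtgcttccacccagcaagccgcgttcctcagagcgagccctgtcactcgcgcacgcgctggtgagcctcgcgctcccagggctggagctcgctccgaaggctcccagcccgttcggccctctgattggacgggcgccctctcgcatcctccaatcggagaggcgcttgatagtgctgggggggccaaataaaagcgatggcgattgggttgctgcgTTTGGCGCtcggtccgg
Suz12: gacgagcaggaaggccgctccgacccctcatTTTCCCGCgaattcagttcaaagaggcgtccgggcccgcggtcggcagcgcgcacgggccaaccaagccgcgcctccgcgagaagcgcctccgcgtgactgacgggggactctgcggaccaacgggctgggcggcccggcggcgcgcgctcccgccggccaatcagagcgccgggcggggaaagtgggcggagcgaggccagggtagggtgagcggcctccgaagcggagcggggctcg
Phf19: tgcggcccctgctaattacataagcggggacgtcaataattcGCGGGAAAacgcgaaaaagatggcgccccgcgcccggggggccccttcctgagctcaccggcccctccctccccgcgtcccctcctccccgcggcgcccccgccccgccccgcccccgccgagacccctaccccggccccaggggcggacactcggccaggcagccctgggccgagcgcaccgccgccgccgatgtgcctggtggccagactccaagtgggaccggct
The search covered windows of 300 bases, from 250 before the start site to 50 after it, and all 10 members matched the table, with 14 windows in all because *Aebp2*, *Jarid2* and *Mtf2* had more than one. The E2F spellings TTTCCCGC, TTTGGCGC and TTTCGCGC were looked for on both strands. At least one was found in 3 of the 14 member windows and in 606 of all 32851 windows, or 1.84%. In *Ezh2* the letters TTTGGCGC began 3 bases after the start site, in *Suz12* TTTCCCGC began 219 bases before it, and in *Phf19* the reverse complement of TTTCCCGC began 208 bases before it. Of these 3 members, *Phf19* rose most of the 10, *Suz12* rose least of those called higher, and *Ezh2* was not called in either line. Whether the letters bear on expression was not tested.

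The other letters searched were found in 0 to 8 of the member windows. The YY1 spelling AAGATGGC was in 1 member window, that of *Phf19*, and in 2.75% of all windows. No member window held the NRF1 spelling GCATGCGC, which 2.71% of all windows held. The CHR element TTTGAA was in 4 of the 14 member windows and 17.9% of all windows, and the CCAAT box, spelled CCAAT, in 8 of 14 and 37.4%. None of these matches overlapped another. Of the windows with E2F letters, that of *Suz12* had an observed to expected CpG ratio of 1.09, that of *Ezh2* 1.00 and that of *Phf19* 0.95, against a median of 0.38 over all windows. The first window of *Mtf2*, at 1.09, was as rich in CpG as that of *Suz12*. A match is a description of the letters and not of a bound site.

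The libraries held between 15838064 and 21366868 counted reads, and all 10 members passed the filter on low counts. *Rbbp4*, the mutated gene, was at 9932, 9965 and 10120 normalized counts in control, 5485, 5551 and 5776 in Ins/Ins and 10130, 10340 and 10600 in Ins/Del. Ins/Ins thus had the lower *Rbbp4* mRNA of the mutant lines in every library, with a log2 fold change of -0.84 ± 0.029 (SE, n = 3) against control and an adjusted p of 1.8e-25. Ins/Del was not called against control, with a log2 fold change of 0.05 and a 95% interval from -0.0065 to 0.107. The counts do not show the edited bases or the level of protein. From Western blots, the study reported less RBBP4 protein in the mutant lines and no impaired expression of EED, EZH2 and SUZ12. As for the cell type, all 8 ESC markers searched were tested, of which 5 rose and 3 fell in Ins/Ins and 4 rose and 2 fell in Ins/Del. In CPM, which are counts scaled to a fixed library total, their summed level ran from 3247 to 3461 in control, from 4044 to 4052 in Ins/Ins and from 4074 to 4200 in Ins/Del. Among all genes tested, 29.0% were called higher and 29.4% lower in Ins/Ins, and 30.6% and 31.9% in Ins/Del.

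The catalytic subunits were not called in either mutant line against control. *Ezh1* (chromosome 11, 101191115 to 101226463, minus strand) was measured at 665.1, 640.0 and 683.2 normalized counts in control, 740.7, 721.1 and 713.6 in Ins/Ins and 618.5, 574.8 and 647.9 in Ins/Del. The Ins/Ins libraries lay above the control libraries, whereas the Ins/Del libraries overlapped with them. The log2 fold change of *Ezh1* was 0.13 ± 0.056 (SE, n = 3) in Ins/Ins, with an adjusted p of 0.037, and -0.12 ± 0.058 in Ins/Del, with an adjusted p of 0.071. *Ezh2* (chromosome 6, 47530139 to 47595341, minus strand), which supplies most of the methyltransferase in dividing ESCs, had 3722, 3627 and 3591 normalized counts in control, 3468, 3445 and 3542 in Ins/Ins and 3822, 3791 and 3766 in Ins/Del. Every Ins/Ins library was below, and every Ins/Del library above, the control libraries. These differences were small, with log2 fold changes of -0.07 (95% interval -0.13 to -0.0032) and 0.06 (95% interval -0.0062 to 0.12).

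The methyltransferase genes differed between the mutant lines in opposite directions. In Ins/Del against Ins/Ins, the log2 fold change was -0.25 ± 0.057 (SE, n = 3) for *Ezh1*, with an adjusted p of 0.0016, and 0.12 ± 0.031 for *Ezh2*, with an adjusted p of 0.0041. The log2 ratio of *Ezh1* to *Ezh2* counts averaged -2.46 ± 0.058 (SD, n = 3) in control, -2.26 ± 0.043 in Ins/Ins and -2.63 ± 0.091 in Ins/Del. The ratio in Ins/Del was 0.777-fold that in Ins/Ins, and no library of one line reached the range of another. A two-sided exact permutation test over libraries gave p = 0.1 for each pair of lines, the smallest value that 3 against 3 allows. The call for *Ezh1* was lost without Ins/Ins replicate 1 (adjusted p = 0.014), without Ins/Del replicate 2 (adjusted p = 0.032) and with DESeq2 (an adjusted p just over the limit, which rounds to 0.01), and that for *Ezh2* was lost without any one of Ins/Ins replicates 1 and 2 or Ins/Del replicates 1, 2 and 3, at adjusted p-values from 0.013 to 0.023.

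Of the other core subunits, *Eed* rose by the largest factor. *Eed* (chromosome 7, 89954654 to 89980983, minus strand), whose protein binds trimethylated H3K27 and stimulates the enzyme, had 4904, 4822 and 4799 normalized counts in control, 6675, 7074 and 6978 in Ins/Ins and 7661, 7700 and 7580 in Ins/Del. The lines did not overlap and stood in the order control, Ins/Ins, Ins/Del. The level was 1.43-fold that of control in Ins/Ins (log2 fold change 0.51 ± 0.029, adjusted p = 2.6e-18) and 1.58-fold in Ins/Del (0.66 ± 0.029, adjusted p = 5.5e-22). Ins/Del exceeded Ins/Ins by 0.15 ± 0.029 on the log2 scale, with an adjusted p of 0.00022.

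*Suz12* (chromosome 11) encodes the scaffold that RBBP4 or RBBP7 and all accessory subunits bind. It had 6599, 6522 and 6641 normalized counts in control, 7213, 7400 and 7435 in Ins/Ins and 7226, 7085 and 7041 in Ins/Del. Every mutant library was above every control library, and the mutant lines overlapped. The rise was 11.6% in Ins/Ins (log2 fold change 0.16 ± 0.028, adjusted p = 5.4e-06) and 8.05% in Ins/Del (0.11 ± 0.028, adjusted p = 0.00057). The difference between the mutant lines, -0.05 with a 95% interval from -0.10 to 0.011, was not called.

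*Rbbp7* (chromosome X) encodes the paralogue that can take the place of RBBP4 in the complex. Its normalized counts were 7987, 7802 and 7828 in control, 7371, 7536 and 7470 in Ins/Ins and 6703, 6630 and 6894 in Ins/Del. The libraries of the 3 lines did not overlap, with control highest and Ins/Del lowest. In Ins/Del *Rbbp7* fell by 14.4% (log2 fold change -0.22 ± 0.028, adjusted p = 4.7e-09), and the Ins/Del level was also below that of Ins/Ins (-0.15 ± 0.028, adjusted p = 0.00019). In Ins/Ins the log2 fold change of -0.08 was just outside the limit, with an adjusted p of 0.013, and was called with scaling by total counts (adjusted p = 0.0031) and with DESeq2 (adjusted p = 0.0079).

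*Rbbp4* mRNA was called lower in Ins/Ins only. *Rbbp7* was called lower in Ins/Del only, although its Ins/Ins libraries also lay below the control libraries. The balance of both paralogues thus differed between the lines. The log2 ratio of *Rbbp7* to *Rbbp4* counts averaged -0.35 ± 0.029 (SD, n = 3) in control, 0.41 ± 0.037 in Ins/Ins and -0.62 ± 0.023 in Ins/Del. Relative to control, the ratio was 1.69-fold in Ins/Ins and 0.827-fold in Ins/Del, and the lines did not overlap (p = 0.1 for each pair, two-sided exact permutation test, the smallest value possible). Per length of merged exons, *Rbbp7* made up 70.3% ± 0.41 (SD, n = 3) of the summed *Rbbp4* and *Rbbp7* level in control, 80.0% ± 0.41 in Ins/Ins and 66.2% ± 0.36 in Ins/Del. With the length of the longest transcript, the shares were 62.0%, 73.4% and 57.5%, in the same order.

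**Figure D1:**
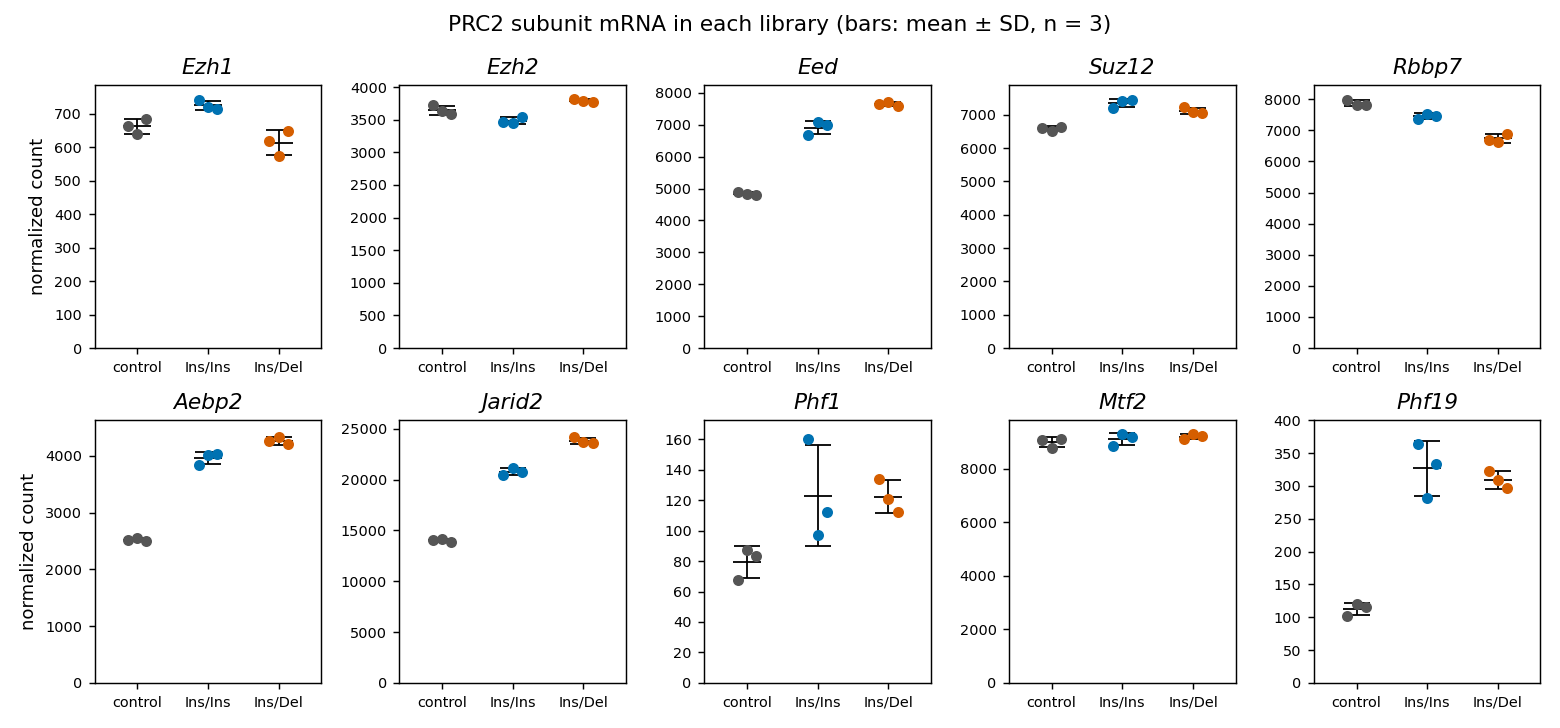
Normalized counts (y axis, from 0) of the 10 PRC2 subunit genes in each library of control, Ins/Ins and Ins/Del, with bars for the mean and SD of the 3 libraries of a line. *Eed*, *Aebp2* and *Jarid2* stood in 3 separate steps, *Phf1* and *Phf19* were higher in both mutant lines at low counts, and *Mtf2* overlapped between all lines.

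Both accessory subunits of PRC2.2 rose in both lines. *Aebp2* (chromosome 6, 140622663 to 140678472, plus strand), a zinc-finger protein that binds SUZ12 beside RBBP4 or RBBP7, had 2521, 2554 and 2503 normalized counts in control, 3835, 4010 and 4028 in Ins/Ins and 4258, 4326 and 4201 in Ins/Del. *Jarid2* (chromosome 13, 44729474 to 44921643, plus strand), which helps PRC2 to reach chromatin and is itself a methylation substrate of the complex, had 14080, 14130 and 13880 in control, 20480, 21110 and 20800 in Ins/Ins and 24160, 23700 and 23570 in Ins/Del. For either gene the 3 lines were separate, with control lowest and Ins/Del highest.

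*Aebp2* was 1.57-fold of control in Ins/Ins (log2 fold change 0.65 ± 0.032, adjusted p = 3.4e-20) and 1.69-fold in Ins/Del (0.76 ± 0.032, adjusted p = 1.5e-22). *Jarid2* was 1.48-fold of control in Ins/Ins (0.57 ± 0.026, adjusted p = 1e-21) and 1.70-fold in Ins/Del (0.76 ± 0.026, adjusted p = 4.9e-26). Between the mutant lines, *Jarid2* was higher in Ins/Del by 0.20 ± 0.025 on the log2 scale (adjusted p = 2.1e-07). *Aebp2* differed between them by 0.11 ± 0.031 and missed the limit with an adjusted p of 0.011, but was called in 5 of the 15 alternatives, among them the fits without control replicate 2 or 3 (adjusted p from 0.0054 to 0.0094 in the 5).

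The Polycomb-like subunits of PRC2.1 were uneven, with one gene at a high level that was not called and 2 at low levels that rose. *Mtf2* (chromosome 5), the Polycomb-like gene with most mRNA in these cells, had 9093, 8769 and 9104 normalized counts in control, 8854, 9284 and 9193 in Ins/Ins and 9099, 9280 and 9210 in Ins/Del. All 3 lines overlapped. Its log2 fold change was 0.02 in Ins/Ins, with a 95% interval from -0.038 to 0.075, and 0.03 in Ins/Del, with an interval from -0.024 to 0.09, so that changes of over 0.09 on the log2 scale lay outside both intervals.

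*Phf19* (chromosome 2), whose protein binds methylated lysine 36 of histone H3 through its Tudor domain, had the largest fold change of the members. The normalized counts were 102.6, 120.5 and 114.8 in control, 364.4, 282.1 and 334.1 in Ins/Ins and 323.0, 308.6 and 296.2 in Ins/Del. Every mutant library was above every control library, and the mutant lines overlapped. *Phf19* was 2.94-fold of control in Ins/Ins (log2 fold change 1.55 ± 0.10, adjusted p = 2e-16) and 2.76-fold in Ins/Del (1.47 ± 0.10, adjusted p = 1.4e-15), which placed it at percentiles 96.0 and 94.3 of all genes tested.

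*Phf1* (chromosome 17) encodes the other low Polycomb-like subunit, which shares the Tudor domain. It had 79, 83 and 77 reads in the control libraries, 187, 86 and 106 in Ins/Ins and 131, 134 and 97 in Ins/Del, or normalized counts of 67.5, 86.9 and 83.4, of 160.0, 97.1 and 112.1, and of 133.9, 120.9 and 112.2. The mutant libraries were all above the control libraries, and Ins/Ins replicate 1 stood apart from the others of its line. The log2 fold change was 0.67 ± 0.15 in Ins/Ins (adjusted p = 0.00021) and 0.64 ± 0.16 in Ins/Del (adjusted p = 0.00038). Without Ins/Ins replicate 1 the change in Ins/Ins was 0.43 and no longer called, with an adjusted p of 0.019. Exons of *Cuta* on the opposite strand cover 39.3% of the exonic length of *Phf1*. Whether the counting used strand is not stated, so reads there may have been mixed between both genes or left out of both. If left out, the count and the level per length of *Phf1* would be too low. *Cuta* itself had between 431.7 and 532.9 normalized counts and was not called, with log2 fold changes of 0.13 in Ins/Ins (adjusted p = 0.0996) and -0.02 in Ins/Del (adjusted p = 0.80).

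**Figure D2:**
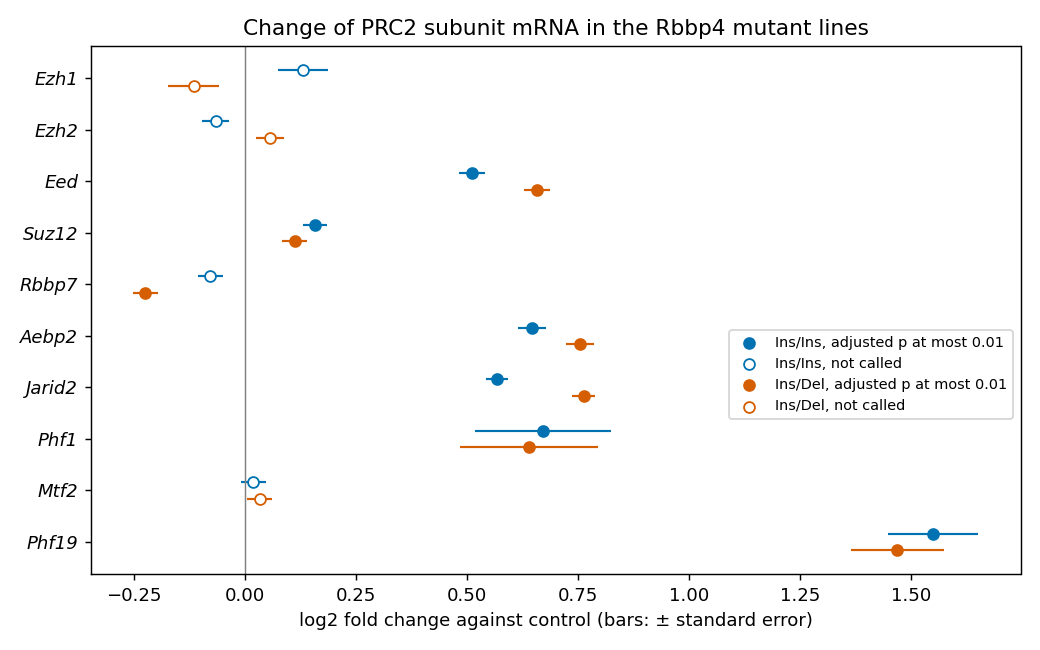
Log2 fold change (x axis) of each PRC2 subunit gene against control in Ins/Ins and Ins/Del, with bars of 1 standard error, filled where the adjusted p was at most 0.01. Filled points lay right of 0 for 6 genes in either line, from 0.11 for *Suz12* in Ins/Del to 1.55 for *Phf19* in Ins/Ins, and left of 0 for *Rbbp7* in Ins/Del.

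Compared directly, 3 members were higher and 2 lower in Ins/Del than in Ins/Ins, and 5 were not called. Over all genes tested, 6.17% were called higher and 4.64% lower in this comparison. *Ezh2*, *Eed* and *Jarid2* were the higher and *Ezh1* and *Rbbp7* the lower members. The median of the members without regard to sign was 0.12 on the log2 scale, against 0.11 over all genes tested. The number of members called fell to 3 without Ins/Ins replicate 1 and also without Ins/Del replicate 2, when 2 were higher and 1 lower. Over all genes tested, the number called in this comparison went from 1527 to 1014 without Ins/Ins replicate 1 and to 988 without Ins/Del replicate 2. *Phf1*, *Phf19*, *Mtf2* and *Suz12* were not called in any of the 15 alternatives, and the 95% intervals of *Phf1* (-0.32 to 0.26) and *Phf19* (-0.26 to 0.086) were the widest of the 10.

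Levels of different genes were compared as CPM per kilobase of merged exons. In control, *Rbbp7* was highest at 148 ± 1.89 (SD, n = 3), followed by *Mtf2* at 86.5 ± 1.83, *Jarid2* at 79.2 ± 0.746, *Suz12* at 73 ± 0.67 and *Eed* at 69.4 ± 0.788. *Ezh2* came next at 29.9 ± 0.557, then *Aebp2* at 14.1 ± 0.143 and *Ezh1* at 4.88 ± 0.16. At the bottom, *Phf1* at 1.25 ± 0.162 and *Phf19* at 1.23 ± 0.0994 were the only neighbours in this order whose libraries overlapped. The catalytic genes thus each had less mRNA per length than *Eed* and *Suz12*, which join them in one complex. By the longest transcript, *Ezh2* was at 71.7, *Suz12* at 82.6 and *Eed* at 128 in control. The size of this gap thus depends on the length used.

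The order changed in the mutant lines with the rise of *Jarid2* and *Eed*. In Ins/Ins *Jarid2* stood at 117 ± 1.77 and *Eed* at 99 ± 2.98, both ahead of *Mtf2* at 87.7 ± 2.18. In Ins/Del *Jarid2* was first at 134 ± 1.76, above *Rbbp7* at 127 ± 2.57, and *Eed* came after them at 110 ± 0.879. *Phf19* was above *Phf1* in both lines, at 3.56 ± 0.453 against 1.94 ± 0.517 in Ins/Ins and 3.37 ± 0.146 against 1.92 ± 0.172 in Ins/Del. No neighbours overlapped in either mutant line. With the length of the longest transcript in place of the merged exons, *Eed* moved to second place in control, at 128 ± 1.46, and to first in Ins/Ins and Ins/Del, at 183 ± 5.52 and 203 ± 1.63, so that the order among the high members depends on the length used.

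**Figure D3:**
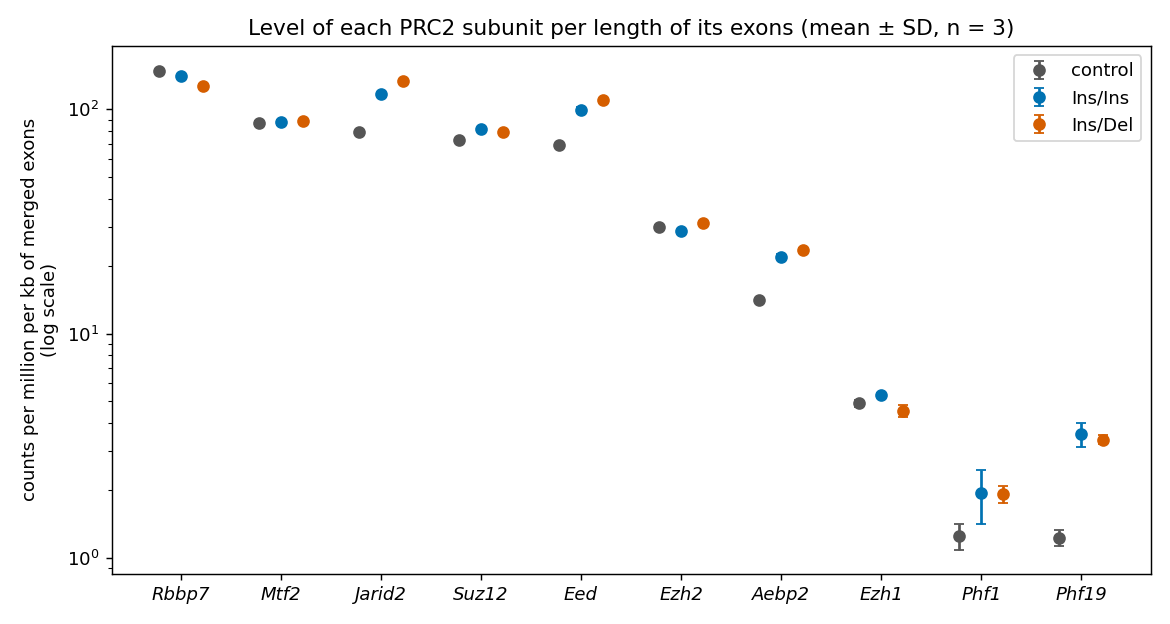
Level of each PRC2 subunit gene in CPM per kilobase of merged exons (log axis) by line, as mean and SD of 3 libraries, with genes in the order of control. *Jarid2* and *Eed* moved up past *Mtf2* in both mutant lines, and *Phf1* and *Phf19* lay lowest in all lines.

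Among the 5 accessory genes of the member list, the share of PRC2.2 subunits was higher in the mutant lines. *Aebp2* and *Jarid2* together made up 51.2% ± 0.67 (SD, n = 3) of the summed level per length of the 5 accessory genes in control, 59.9% ± 0.14 in Ins/Ins and 62.8% ± 0.38 in Ins/Del. The share of *Mtf2* was 47.5% ± 0.75, 37.7% ± 0.37 and 35.1% ± 0.49, although the count of *Mtf2* was not called in either line. With the longest transcript the PRC2.2 shares were 48.1%, 57.1% and 59.9%. Among the Polycomb-like genes, *Mtf2* held 97.2% ± 0.33 in control, 94.1% ± 1.1 in Ins/Ins and 94.4% ± 0.36 in Ins/Del, while *Phf19* held 1.38% ± 0.13, 3.82% ± 0.53 and 3.59% ± 0.17. *Ezh1* made up 14.0% ± 0.49 of the summed *Ezh1* and *Ezh2* level in control, 15.7% ± 0.39 in Ins/Ins and 12.7% ± 0.7 in Ins/Del. These are shares of mRNA and not of protein or of assembled complexes. The genes *Epop* and *Lcor*, tied to PRC2.1 and described below, rose in both lines and were left out of these sums. *Lcorl*, the relative of *Lcor*, was left out too and fell in both lines. The PRC2.2 shares thus hold for the 5 genes counted and depend on that choice.

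**Figure D4:**
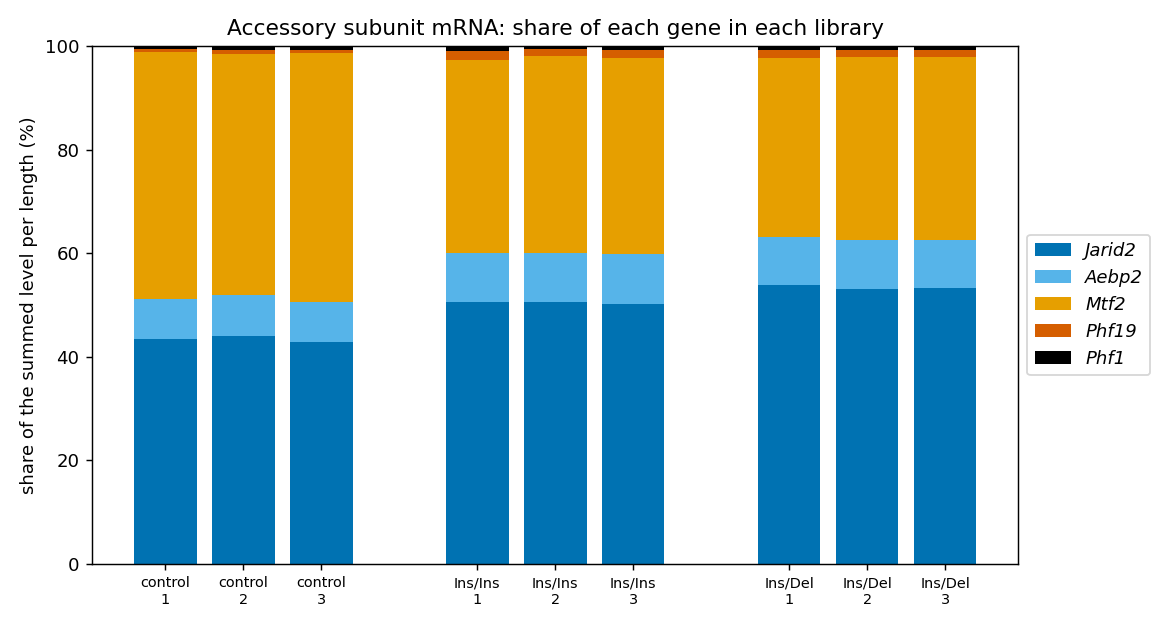
Share in percent (y axis) of the summed level per length of the 5 accessory subunit genes in each library, stacked by gene. *Jarid2* and *Aebp2*, at the bottom, together rose from about 51.2% in control to 59.9% in Ins/Ins and 62.8% in Ins/Del, and *Phf19* and *Phf1* stayed thin bands at the top.

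Other proteins that bind PRC2 were measured beside its subunits, and 3 of 4 rose while 1 fell in either line. Calls were common, with 29.0% of all genes tested higher and 29.4% lower in Ins/Ins, and 30.6% and 31.9% in Ins/Del. *Epop*, which links PRC2.1 to Elongin BC, had between 3899 and 4505 normalized counts in control, 5484 to 6037 in Ins/Ins and 7157 to 7438 in Ins/Del. It was 1.36-fold of control in Ins/Ins and 1.72-fold in Ins/Del, and the lines differed by 0.34 ± 0.036 on the log2 scale (adjusted p = 6.6e-09). *Ezhip*, an inhibitor of PRC2 catalysis that the files list as *AU022751*, rose from 117.3 ± 3.7 normalized counts (SD, n = 3) in control to 241.0 ± 22.3 in Ins/Ins and 287.0 ± 28.9 in Ins/Del. *Lcor*, whose locus also encodes the PRC2.1 subunit PALI1, was 1.72-fold of control in Ins/Ins and 1.67-fold in Ins/Del, whereas its relative *Lcorl* fell by 0.37 and 0.45 on the log2 scale. *Kdm6a* and *Kdm6b*, whose enzymes remove the PRC2 mark, and their relative *Uty* were called lower in both lines. The log2 fold changes in Ins/Ins and Ins/Del were -0.20 and -0.15 for *Kdm6a*, -0.21 and -0.22 for *Kdm6b*, and -0.29 and -0.40 for *Uty*.

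PRC1, the other main Polycomb complex, which ubiquitylates histone H2A, did not move in one direction. Of 20 PRC1 genes tested, 4 rose, 5 fell and 11 were not called in Ins/Ins, and 4 rose, 6 fell and 10 were not called in Ins/Del. Their median log2 fold change was -0.037 in Ins/Ins and -0.042 in Ins/Del. All genes tested also went both ways, with 29.0% called higher and 29.4% lower in Ins/Ins, and 30.6% and 31.9% in Ins/Del. *Pcgf5* fell by 0.69 and 0.98 on the log2 scale in Ins/Ins and Ins/Del, and *Phc2* by 0.71 and 0.74.

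The genes of DNA replication and mitosis, which mark dividing cells, were also mixed. Of 17 tested, 4 rose, 4 fell and 9 were not called in Ins/Ins, and 3 rose, 5 fell and 9 were not called in Ins/Del, with medians of -0.0078 and -0.032. The shares over all genes tested were 29.0% higher and 29.4% lower in Ins/Ins, and 30.6% and 31.9% in Ins/Del. *Mki67*, a marker of dividing cells, fell by 0.47 and 0.51 on the log2 scale, and *Bub1*, a mitotic checkpoint kinase, by 0.14 and 0.29. *Rrm2*, a subunit of ribonucleotide reductase, rose by 0.47 and 0.50.

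**Figure D5:**
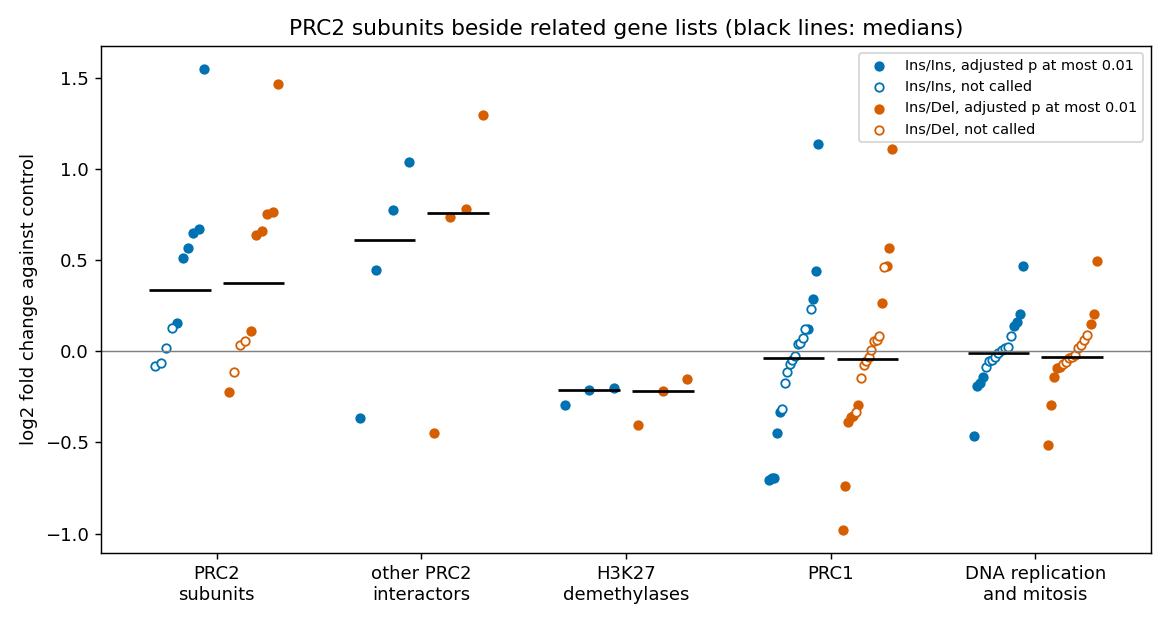
Log2 fold change against control (y axis) of each gene of 5 lists in Ins/Ins and Ins/Del, filled where the adjusted p was at most 0.01, with black lines for the medians. The PRC2 subunits had medians of 0.34 and 0.38 and the PRC1 genes of -0.037 and -0.042.

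Of the loci that the study had used for ChIP-PCR, the 7 PRC2 targets had few reads. Among them, *Hoxa10*, *Hoxd9*, *Pax7* and *Runx2* did not pass the filter, with at most 16 reads in any library. *Wnk2* fell from 145.4 ± 18.8 normalized counts (SD, n = 3) in control to 67.0 ± 8.26 in Ins/Ins and 73.7 ± 6.78 in Ins/Del. *T*, the mesoderm factor Brachyury, had 42, 52 and 40 reads in the control libraries, 3, 3 and 1 in Ins/Ins and 0, 1 and 0 in Ins/Del, and was called lower in both lines. *Shc3* was called higher in Ins/Del, where it had 19, 30 and 28 reads against 12, 18 and 10 in control, and not in Ins/Ins, where it had 18, 11 and 24. Of the loci taken as untargeted, *Fancg* fell by 0.40 in Ins/Ins and 0.56 in Ins/Del on the log2 scale. *Mybl1* rose by 0.26 in Ins/Ins and was not called in Ins/Del at 0.19, and *Npm1* had -0.03 in Ins/Ins, not called, and -0.10 in Ins/Del, called.

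Markers of other cell types differed between control and mutant libraries as well. For comparison, 29.0% of all genes tested were called higher and 29.4% lower in Ins/Ins, and 30.6% and 31.9% in Ins/Del. These shares also stand beside the early lineage markers below. Of 4 neural progenitor markers, 3 were tested and 2 fell in either line, and the summed level was 139.6 to 140.4 CPM in control, 22.5 to 24.2 in Ins/Ins and 20.8 to 22.6 in Ins/Del. The neural marker *Neurog2* had at most 1 read in any library. Of 8 fibroblast markers, 5 were tested, and 4 fell while *Thy1* rose in either line. Their summed level was 34.1 to 40.2 CPM in control, 15.3 to 16.5 in Ins/Ins and 19.5 to 21.3 in Ins/Del. *Col1a2*, a fibroblast collagen, had 195 to 313 reads in control and 6 to 12 in the mutant libraries, *Col3a1* had 28 to 35 and 0 to 2, and *Lum*, a proteoglycan of fibroblasts, had at most 1 read in any library.

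Markers of early lineages were low in all lines. Of 4 mesoderm markers, 3 were tested, 1 rose and 1 fell in either line, *Mesp1* had at most 3 reads in any library, and the sum was 12.9 to 13.8 CPM in control, 17.8 to 19.2 in Ins/Ins and 14.9 to 16.2 in Ins/Del. Of 6 primitive endoderm markers, 5 were tested. In Ins/Ins 1 rose and 1 fell and in Ins/Del 4 rose and 1 fell, with sums of 6.53 to 6.99 CPM in control, 6.43 to 8.79 in Ins/Ins and 11.2 to 13.1 in Ins/Del. Of 4 trophectoderm markers, 3 were tested, and 2 fell in Ins/Ins and 3 in Ins/Del, with sums of 10.6 to 11.9, 5.16 to 6.24 and 3.14 to 4.82 CPM. Beside these, the 10 PRC2 members summed to 2691 to 2728 CPM in control, 3244 to 3343 in Ins/Ins and 3472 to 3510 in Ins/Del. In bulk RNA, fewer cells of a type and less RNA per cell cannot be told apart, and the part of these markers in the differences of the PRC2 genes was not tested.

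*Phf19*, the member with the largest mean change, was compared with all other genes for the likeness of its profile. The most alike over the 9 libraries were *Fmnl1* (Pearson's r = 0.995), *Oasl1* (0.994) and *Usp48* (0.994). *Fmnl1* went from a mean of 64.6 normalized counts in control to 199.6 in Ins/Ins and 195.1 in Ins/Del, *Oasl1* from 1.71 to 22.7 and 24.9, and *Usp48* from 6168 to 7958 and 8005. An r above 0.95 with *Phf19* was found for 1201 genes, and all 9 points of each r share the split into control and mutant libraries.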

How the data were processed

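mRNA libraries of E14 ESCs, 3 each of control, Ins/Ins and Ins/Del, were analysed from the read counts per gene that the authors deposited. The submitters' processing notes name STAR 2.7.3, HTSeq, DESeq2 1.22.2 and the build mm10. The version of HTSeq, the gene annotation and whether strand was used in counting are not given in the sources used here. Reads of overlapping genes on opposite strands may therefore be mixed or left out. Library totals ran from 15838064 to 21366868 counts. Groups were taken from the genotype labels.

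The counts were scaled by TMM factors and filtered with filterByExpr in edgeR 4.0.16 (R 4.3.3), which then fitted a quasi-likelihood model to all 9 libraries in 3 groups without covariates. P-values were adjusted by the Benjamini-Hochberg method over the 14125 genes tested, and the limit for a call was 0.01. Values after ± are SE for log2 fold changes and SD for levels, ratios and shares. The SE was worked back from the F statistic of the quasi-likelihood test. It thus rests on the spread fitted to all 9 libraries, and n gives the libraries per line. Normalized counts are counts scaled by the effective library size to the mean library. The biological coefficient of variation was 0.0286. Within a line, counts of libraries differed by more than sampling noise, and none was a copy of another. Ratios of 2 genes used counts plus 0.5 and a two-sided exact permutation test over libraries, whose smallest p is 0.1. Levels between genes used exon lengths of GENCODE gene models on GRCm38, the build also called mm10. Promoter windows came from RefSeq on GRCm38.p6. The *Ezhip* symbol was matched through a RefSeq synonym.

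The fit was tested on simulated data with 13890 genes tested. In Ins/Ins against control it recovered 92 of 100 genes changed by 0.5 and 99 of 100 changed by 1 on the log2 scale, with 5 false calls. In Ins/Del against control it recovered 91 and 99 of 100, with 1 false call. Only genes with higher mean counts were changed, as many up as down and alike in both mutant lines. The noise followed the spread that edgeR estimated from these libraries. Far fewer genes were changed than were called in the real libraries, so these rates do not carry over to the calls above.

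The members and the gene lists were chosen with earlier results of these data known. Named are all members, *Rbbp4*, and every gene of the lists of PRC2 interactors, demethylases with their relative *Uty*, and ChIP-PCR loci. To these come up to 3 genes of each longer list with the largest mean change among those called in both lines in one direction. One gene that this rule names is not reported here. *Cuta* was added because it overlaps *Phf1*, and the markers *Thy1*, *Neurog2*, *Lum* and *Mesp1* were named after their values were seen. Named for *Phf19* are the 3 genes with the highest correlation of log2 levels. Alternatives were DESeq2 1.42.0, edgeR with the size factors of DESeq2 or with total counts, no filter on low counts, fits of the 6 libraries compared, a block for the replicate number, fits without one library at a time, a limit of 0.05 for the adjusted p, and the longest transcript as length. Tables and plots were made with Python 3.11.15, pandas 2.3.3, scipy 1.17.1 and matplotlib 3.10.9.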

Additional observations from a re-analysis of the deposited data

Results flagged for a closer look

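A direct test of Ins/Del against Ins/Ins found that 5 PRC2 members differed between the mutant lines at an adjusted p of at most 0.01 (edgeR's quasi-likelihood test, Benjamini-Hochberg). On the log2 scale the differences were -0.25 for *Ezh1*, 0.12 for *Ezh2*, 0.15 for *Eed*, -0.15 for *Rbbp7* and 0.20 for *Jarid2*. Over all genes tested, 6.17% were called higher and 4.64% lower in this comparison. Without regard to sign, the median log2 difference was 0.12 for the 10 members and 0.11 over all genes tested. For *Eed* and *Jarid2* both lines were above control and Ins/Del was the higher, and for *Rbbp7* Ins/Del was the lower. *Ezh1* and *Ezh2* were not called against control in either line and differed from each other in direction. Their calls between the mutant lines were lost in 3 of 15 alternatives for *Ezh1* and in 5 for *Ezh2*. Of the genes described beside them, *Rbbp4* differed by 0.89, *Epop* by 0.34, *Bub1* by -0.15 and *Thy1* by 0.34. Each line is 1 clone, so that the alleles and the clone cannot be told apart in these differences.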

How the results depend on the processing

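Each of the 30 member fold changes was recomputed under 15 alternatives. Of these 450 values, 430 kept the direction and the side of the limit, 9 lost the call, 7 gained it and 4 changed sign. In 22 of the 30 fold changes no alternative changed either. The sign changes all arose when 1 library was left out and in differences between the mutant lines that were not called, which ranged from -0.17 to 0.23 for *Phf1*, from -0.0059 to 0.028 for *Mtf2* and from -0.18 to 0.0049 for *Phf19*.

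With 1 library left out at a time, the members called in Ins/Del against Ins/Ins numbered 3 to 6, against 5 with all libraries. The lowest number came without Ins/Ins replicate 1 and without Ins/Del replicate 2. Over all genes, 988 to 1646 were called in that comparison, against 1527 with all libraries, with 1014 without Ins/Ins replicate 1 and 988 without Ins/Del replicate 2. At an adjusted p limit of 0.05 they numbered 2682. The cause was not tested.

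Deviations of libraries with the same replicate number from their line's mean correlated between -0.08 and 0.058 over 11323 genes, so the numbers were taken as names only. With the replicate block, 6 members were called in Ins/Ins, 7 in Ins/Del and 5 between the mutant lines, as without it, and the block changed no call of a member.

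The counts of *Phf1* (77 to 187 reads) and *Phf19* (106 to 426 reads) limit the precision of their fold changes, whose standard errors were 0.10 to 0.16 against control, compared with 0.026 to 0.058 for the other members.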
